A study of Arabidopsis thaliana with 2 samples.

Results

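HBI1, BEE1, BEE2, BEE3, CIB1, CIB4, CIB5, CIL1 and BPE are 9 Arabidopsis thaliana genes for basic helix-loop-helix (bHLH) transcription factors. They were taken by their locus codes from among 27444 nuclear protein-coding genes, and the gene table gave each code the name used here as its symbol or an alias. The study mapped places on the genome occupied by IBH1 with chromatin immunoprecipitation and sequencing (ChIP-seq), in whole seedlings 10 days old of the ecotype Col-0, grown at 22 °C with 16 h of light and no treatment. One group was the line p35S::IBH1-GFP, in which the strong viral 35S promoter drives IBH1 fused to green fluorescent protein (GFP). The control was the line p35S::GFP, which makes GFP alone from that promoter, and GFP was the target of the antibody in both. Each group was 1 library, made from the pooled DNA of 3 ChIP experiments, so no value below has a replicate error and no test was possible. The 35S promoter is active in most tissues, so the fusion protein can be made at other levels and in other cells than IBH1 itself. The labels conflict in places. The tagged sample is titled IBL1 where its line says IBH1, and the control's library protocol names Col-0 where its line says GFP.

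The deposited data were a single list of 2944 nuclear peaks (and 1 mitochondrial peak) with their summits, in coordinates of the build TAIR9. The list names no sample and was read as the IBH1-GFP peaks. Each peak has a score, which MACS computes as 10 times the −log10 of a p-value. The height of a summit is the number of DNA fragments stacked there. Nuclear peaks scored 50.01 to 1045.71 (median 72.8), were 14 to 100 fragments high (median 27) and had a median width of 885 bp. Sequencing depth is unknown, and weaker enrichment than the authors' threshold is not listed. A gene counted as having a peak when a summit lay inside its bounds or within 1000 bp. Just inside that limit was AT2G35450, with a summit at 1000 bp, and just outside were 3 genes at 1001 bp.

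As background, these bHLH proteins bind E-box DNA through a basic region and promote cell elongation or flowering. HBI1 and the BEE proteins act in brassinosteroid-driven growth. CIB1 was found as a partner of the blue light receptor CRY2, and it and related CIB proteins activate flowering. IBH1 is an atypical member of the same superfamily that pairs with HBI1 and some of its relatives and keeps them from DNA, while the small PRE proteins take IBH1 away. BPE limits the growth of petals, so the description growth-promoting does not hold for it. A peak list reports DNA at a gene and says nothing about pairing between the proteins.

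BPE was the only one of the 9 genes with a peak. That is 11.1% of them, against 12.7% of all protein-coding genes, so the share was near the background. The exact Clopper-Pearson 95% interval was 0.281% to 48.2%, for counting error only. It treats the 9 chosen genes as random draws, which they were not. HBI1, the 3 BEE genes, CIB1, CIB4, CIB5 and CIL1 had no peak. No summit lay inside any of the 9. Of all protein-coding genes 7.05% held one, so 9 genes are too few to be told from that share. The nearest summit was 110 bp from BPE, 3292 bp from CIB5 and 13292 bp from BEE3. It was 32263 bp from BEE1, 33756 bp from CIB4, 37276 bp from BEE2, 42644 bp from HBI1, 60344 bp from CIB1 and 85436 bp from CIL1. The median over the 9 genes was 33756 bp, against 13766 bp over all protein-coding genes. The upper quartile of all genes was 34275.5 bp, and 4 of the 9 genes lay beyond it. These comparisons with all genes were not matched for position on the chromosome, which is taken up below.

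**Figure D1:**
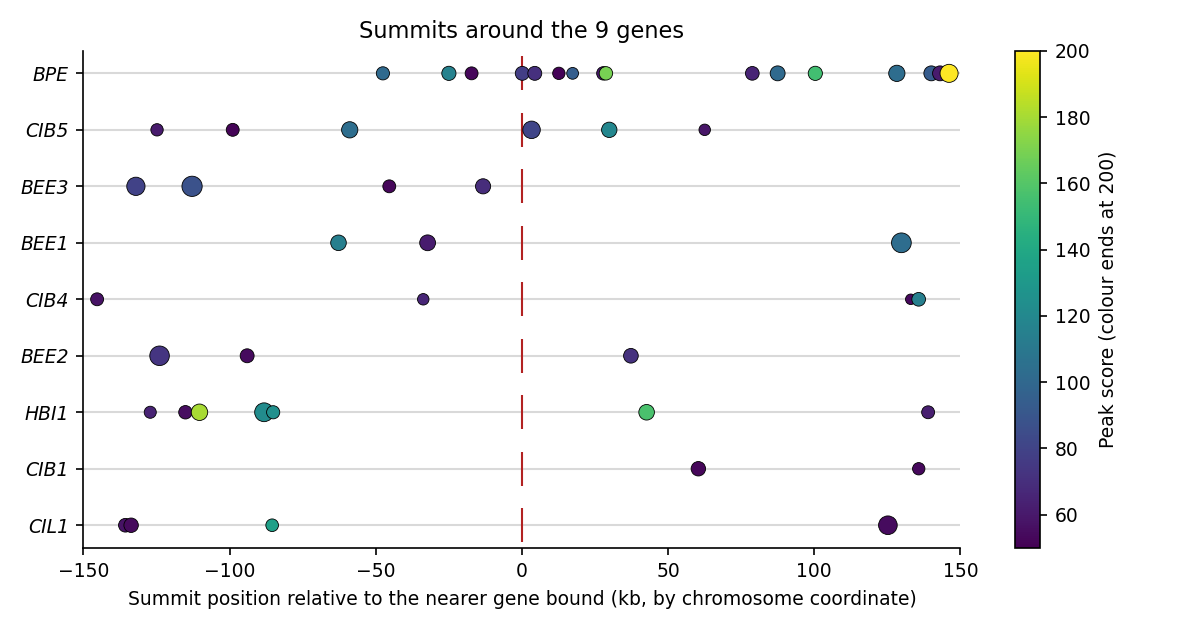
Summits within 150 kb of each of the 9 genes, ordered by the distance to the nearest summit. Each point is a summit, placed by its distance in kb from the nearer gene bound along the chromosome coordinate, with colour for the peak score and area for the height. BPE has a summit at 110 bp, while CIB1 and CIL1 have none within 50 kb.

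The peak at BPE (AT1G59640, listed as BPEp) spanned chromosome 1, 21910373 to 21911591 (TAIR9), a width of 1219 bp. Of these, 917 bp overlapped the gene, covering 41.3% of its length, and 302 bp lay beyond its higher-coordinate bound. The summit at 21911399 was 110 bp outside that bound. BPE was the nearest protein-coding gene of this summit and the only one within 1000 bp. The gene table gives no strand, so the start of BPE could not be told from its end, and exons were not analysed here. The peak scored 77.4 and was 28 fragments high. Both values are close to the middle of the list: 55.8% of nuclear peaks scored lower and 53.0% were less high. Among the 3499 protein-coding genes with a peak, 53.6% had a lower top score than BPE.

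More summits followed beside BPE. The second stood 4392 bp past the same bound, at 21915681, scoring 70.7 at a height of 28. It was 4064 bp from CW14 (AT1G59650) and hence inside no protein-coding gene. The third, at 21923917 and 12628 bp away, scored 51.2 and was 22 fragments high. It lay 69 bp from AT1G59660, which held a further summit at 21928625 scoring 94.05 at a height of 20. On the other side the first summit was 17220 bp away, inside ZCW7 (AT1G59600), scoring 52.7 at a height of 24. BPE thus had 5 summits within 20 kb, and 97.9% of protein-coding genes had fewer. Within 50 kb it had 9. The highest score among the 9 was 169.1, at a summit 28728 bp away where AT1G59710 and CRR28 (AT1G59720) overlap.

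**Figure D2:**
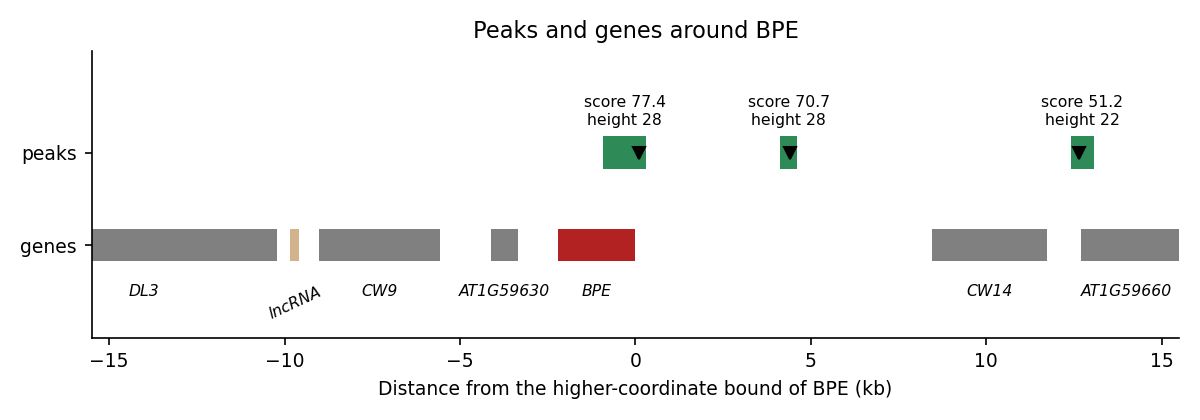
Peaks (green bars, with black triangles at the summits) and genes (BPE in red, other protein-coding genes in grey, a long noncoding RNA gene in tan) within 15 kb of BPE. The horizontal axis is the distance in kb from the bound of BPE with the higher coordinate, and the summit with a score of 77.4 lies 110 bp beyond it.

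HBI1 (AT2G18300), a brassinosteroid-responsive activator of elongation genes that IBH1 binds as a protein, had no listed peak between summits 130.1 kb apart. The nearer of these was at chromosome 2, 7996358 to 7997755, with its summit at 7997429 inside SDH1-2 (AT2G18450), a gene for a subunit of mitochondrial succinate dehydrogenase. Its score of 156.71 exceeded that of 92.7% of peaks, and it was 35 fragments high. It was the highest score among the peaks nearest to the 9 genes, but 12 protein-coding genes lay between it and HBI1. On the other side the first summit was 85091 bp away, inside AT2G18090, scoring 124.6 at a height of 25. HBI1 was farther from a summit than 80.6% of protein-coding genes.

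The BEE genes, named for expression enhanced by brassinosteroid, also had no peak in reach. For BEE1 (AT1G18400) the nearest peak was at chromosome 1, 6298836 to 6300274, scoring 61.7 at a height of 36. Its summit was 534 bp from NUDT4 (AT1G18300), a Nudix hydrolase gene, and 10 genes lay between. For BEE2 (AT4G36540), after which HBI1 is named in full as a homolog, it was a wide peak of 2495 bp at chromosome 4, 17281705 to 17284199. That peak scored 71.2 and was 31 fragments high, and its summit was 461 bp from PBRP (AT4G36650), a gene for a relative of the general factor TFIIB, within the noncoding RNA gene AT4G36648. BEE3 (AT1G73830) was the nearest of the 3 to a summit. That summit, at chromosome 1, 27746649, lay inside SARD1 (AT1G73805), a regulator of salicylic acid synthesis, with a score of 68.9, a height of 33 and 2 genes between. On the other side BEE3 had no listed summit for 198425 bp.

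Among the cryptochrome-linked genes, CIB5 (AT1G26260) came closest to a peak without reaching the limit. The peak, at chromosome 1, 9092145 to 9093142, scored 80.95 and its height of 44 exceeded 88.9% of summits. Its near edge was 2770 bp from CIB5, and its summit at 9092667 was 107 bp from AT1G26270. Between CIB5 and that summit lay 1 whole protein-coding gene. This peak was the tallest of those nearest to the 9 genes. CIB1 (AT4G34530), a partner of CRY2, had a gap of 266.9 kb between its flanking summits. That was longer than for 91.2% of the protein-coding genes that hold no summit. The nearer peak, of 2499 bp at chromosome 4, 16560196 to 16562694, had its summit in ADC2 (AT4G34710), an arginine decarboxylase gene of polyamine synthesis. It scored 52.9, a value that 9.44% of peaks fell short of, and was 30 fragments high.

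CIB4 (AT1G10120) and CIL1 (AT1G68920) carry no symbol of their own in the gene table and were matched by alias. The nearest peak to CIB4, at chromosome 1, 3269796 to 3270804, lay over AT1G10020 with a score of 66.2. Its height of 19 was the lowest among the peaks nearest to the 9 genes, and only 5.13% of summits were less high. The nearest peak to CIL1, at chromosome 1, 25828787 to 25829937, lay with its summit in NUDX1 (AT1G68760), another Nudix hydrolase gene. It scored 134.45 and was 23 fragments high. CIL1 was farther from a summit than 93.9% of protein-coding genes, with 21 genes between, the most among the 9. On its other side the first summit, 125175 bp away, was 441 bp from the receptor kinase gene RPK1 (AT1G69270), with a height of 50 and a score of 54.7.

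**Figure D3:**
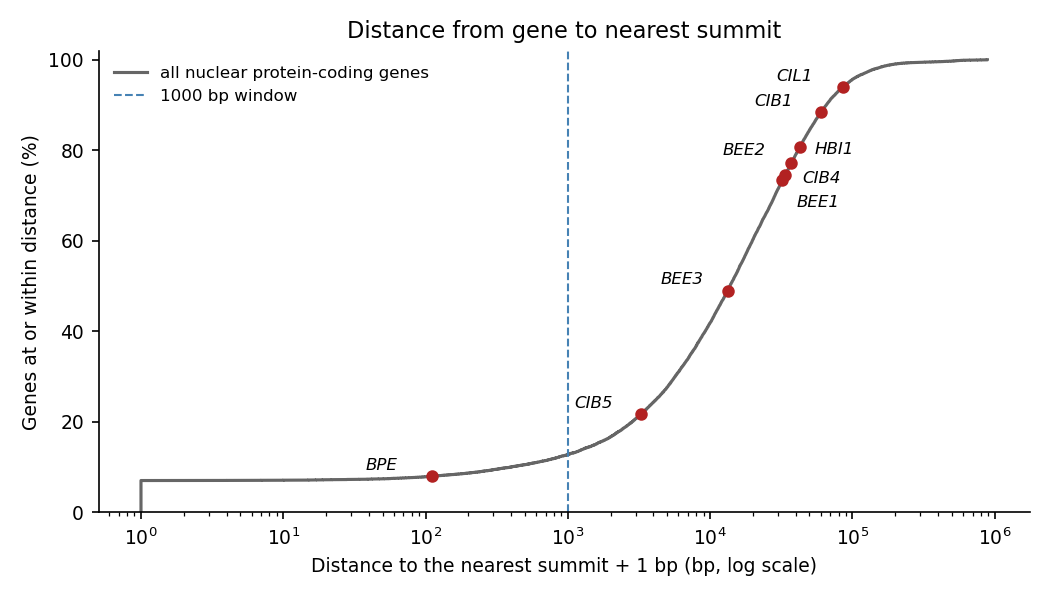
Share of all 27444 protein-coding genes (grey line, percent) with a summit at or within a given distance (bp plus 1, log scale), with the 9 genes marked in red. BPE alone lies left of the dashed line at 1000 bp, and CIL1 lies where 93.9% of genes were nearer to a summit.

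The peaks nearest to the 9 genes had scores like those of the list and more often stood at or above its median height. Their scores ran from 52.9 to 156.7 with a median of 71.2, against 72.8 in the whole list. Their heights ran from 19 to 44 with a median of 31, against 27. They were 797 to 2499 bp wide, with a median of 1219 bp against 885 bp. The 9 peaks were all different, and 5 of the summits lay inside another protein-coding gene. With the first summit on both sides of each gene, 10 of 18 lay inside a protein-coding gene (55.6%), against 67.5% of all nuclear summits. Of the 18 peaks, 5 scored 100 or more (27.8%), against 24.8% of the list. At or above the median height were 12 of the 18 (66.7%) and 7 of the 9 nearest (77.8%), against 51.7% of the list. With so few peaks and no replicate, these shares were not tested.

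**Figure D4:**
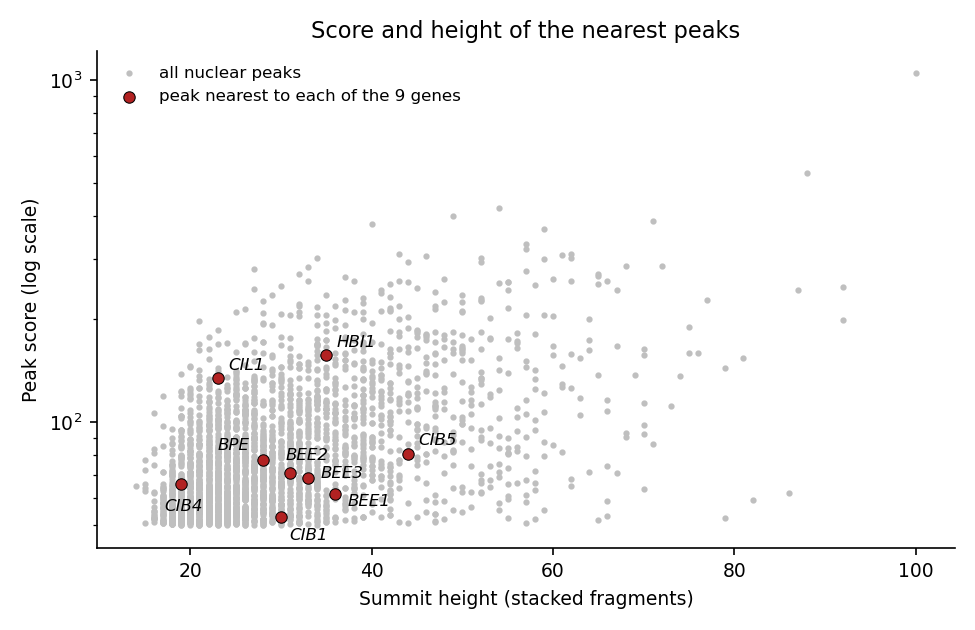
Score (log scale) against summit height (stacked fragments) for all nuclear peaks in grey and for the peak nearest to each of the 9 genes in red. The peak nearest to HBI1 has the highest score of the 9, 156.7, and the peak nearest to CIB5 the greatest height, 44.

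Counted over a wider stretch, 7 of the 9 genes had fewer than 4 summits within 100 kb, as did 38.7% of all protein-coding genes, and BPE and CIB5 had more than 4. Within 100 kb there were 11 summits around BPE, 5 around CIB5 and 3 around HBI1. BEE1, BEE2 and BEE3 had 2 each, and CIB1, CIB4 and CIL1 had 1 each. All protein-coding genes had a median of 4, with quartiles of 2 and 7. As a density, the stretch around BPE held 54.4 summits per Mb, and chromosome 1 as a whole held 23.2. Around CIB1 and BEE2, on chromosome 4, the densities were 4.96 and 9.92 per Mb, against 33.9 for that chromosome. Around HBI1 it was 14.8, against 27.5 for chromosome 2.

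**Figure D5:**
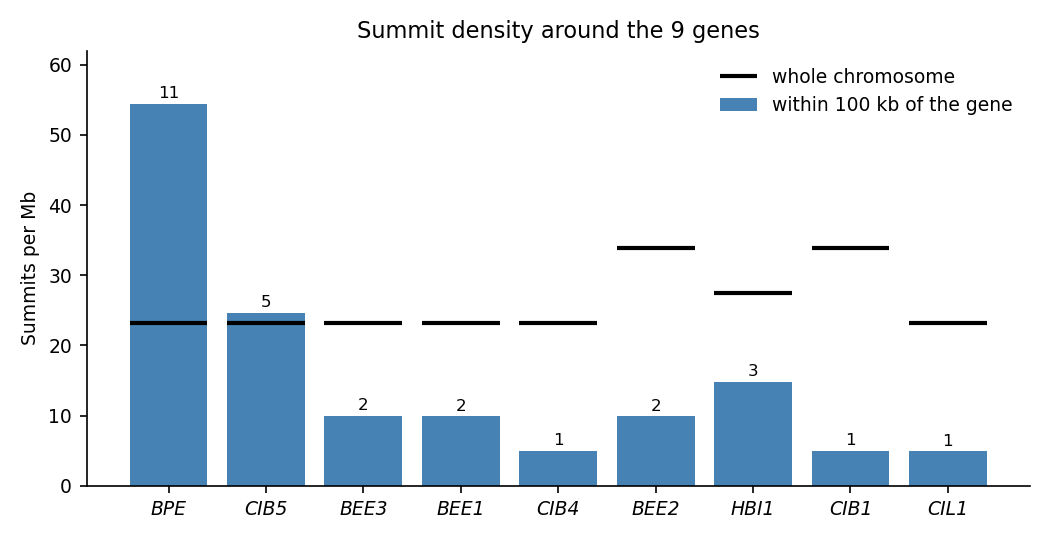
Summits per Mb within 100 kb of each of the 9 genes (bars, with the number of summits above) and on the whole chromosome (black lines). BPE, with 11 summits, stands well above the level of chromosome 1, CIB5 slightly above it, and the other 7 genes lie below that of their chromosome.

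Over all protein-coding genes, the share with a peak was lower farther from gene-poor regions. With BPE alone having a peak, no such order can be read for the 9 genes. A window of 500000 bp is called gene-poor here when it held fewer than 60 protein-coding genes. Within 2 Mb of such a window, 21.9% of protein-coding genes had a peak, at 2 to 5 Mb 15.1%, and beyond 5 Mb 8.72%. Of the 9 genes, 7 lay beyond 5 Mb, BPE among them at 5.41 Mb. CIB5 lay at 3.91 Mb. HBI1, at 1.95 Mb the only one within 2 Mb, was 42644 bp from a summit, while BPE was the nearest to one. Among genes beyond 5 Mb and as long as the 9 (1648 to 3032 bp), 9.14% had a peak. All protein-coding genes beyond 5 Mb had a median distance to a summit of 19371 bp and an upper quartile of 43244.75 bp. CIB1 and CIL1 were the only ones of the 9 beyond that quartile. In that outer zone 36.8% of genes were over 30 kb from a summit, against 28.6% of all genes and 6 of the 9. Those 6 were BEE1, BEE2, CIB1, CIB4 and CIL1 in that zone, and HBI1 outside it. BPE and BEE3, also in that zone, were nearer to a summit. Whether position accounts for the distances of the 9 genes, or for the summit densities around them, was not tested.

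For peaks with a score of 100 or more, the 9 genes were about as far as other genes. Their median distance to such a summit was 85436 bp, against 80343 bp over all protein-coding genes. The range was wide: BPE was 24985 bp and CIB5 29869 bp from such a summit, BEE3 272456 bp and CIB1 898275 bp. For CIB1 that distance exceeded the value of 97.4% of protein-coding genes.

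The other genes of the pathway were taken from 3 lists. The related bHLH list held 8 locus codes, of which the gene table names CESTA (listed as CES, a brassinosteroid-linked bHLH), CIB2, CIB3 and CIL2. None of these 4 had a peak, against 12.7% of all protein-coding genes, and 4 genes are too few to tell from that share. Their nearest summits were 19493 to 52084 bp away. The other 4 codes carry no bHLH name there and were put in the list from general knowledge. Of them AT2G42300 had a peak, at chromosome 2, 17625102 to 17625770, scoring 69.1 at a height of 28. Its summit was 506 bp outside the gene and inside the neighbour AT2G42310, and the call was lost for summits inside genes alone, with a window of 500 bp, with the nearest gene only, and with peaks limited to scores of at least 100 or at least the median. The related list thus had 1 of 8 with a peak (12.5%), near the 12.7% of all protein-coding genes, and a median distance of 21.1 kb. The 4 named genes had no peak and a median of 38.4 kb.

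Among the atypical HLH genes and PIF4, 2 of 16 (12.5%) had a peak, against the same background of 12.7%. These were IBH1 itself and PAR2 (AT3G58850), a repressor of shade responses whose peak at chromosome 3, 21759566 to 21760253, scored 58.3 and was 24 fragments high. The peak in IBH1 (AT2G43060) had the highest score and height of the list, 1045.71 and 100. DNA of the transgene and of the native gene cannot be told apart there, so the IBH1 call within the 12.5% cannot be assigned to the native gene. The codes AT5G15160 and AT3G47710, which the table lists as BNQ2 and BNQ3 and which also go by PRE2 and PRE4, had nearest summits 31482 and 6699 bp away. Those of AIF1, AIF2, AIF3 and AIF4, genes for atypical repressors akin to IBH1, were 27977 to 78930 bp away. HFR1, an atypical bHLH gene of far-red light responses, was 101262 bp from a summit, the farthest of the 16. PAR1, PRE1, IBL1, PRE5 and PIF4 were 2672, 7977, 10462, 13816 and 20415 bp from one. PRE3 and PRE6 were 22462 and 49257 bp from one. The median over the 16 genes was 21.4 kb, against 13.8 kb over all protein-coding genes.

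None of the 4 genes chosen as targets or partners had a summit inside or within 1000 bp. The expansin genes EXPA1 and EXPA8, which loosen cell walls, were 8586 and 25925 bp from a summit. FT, the flowering signal gene that CIB1 activates, was 7189 bp away. CRY2, the receptor that CIB1 pairs with, was just outside the limit, with the summit at 1137 bp and the near edge of the peak at 709 bp. CRY2 counts as having a peak when any base of the peak, in place of the summit, may lie within 1000 bp, or when the window is 2000 bp. That summit lay inside the neighbour c-NAD-MDH1 (AT1G04410), a malate dehydrogenase gene, scoring 59.3 at a height of 20.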

How the data were processed

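Per the labels' protocols, ChIP DNA was pooled over 3 experiments a group and amplified with 18 PCR cycles. The submitters' processing notes list CASAVA 1.8.2, Bowtie, MACS and the build TAIR9. The sources used here do not give settings or say how the control library entered peak calling. The authors deposited a score for each peak and, at each summit, a signal that is a whole number of stacked fragments.

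Genes were placed by the bounds of a RefSeq gene table (TAIR10.1), matched by locus code for all 37 genes of the lists. Printed coordinates are the authors' TAIR9 values, counted from 1. As a check of the builds, 67.5% of nuclear summits lay in protein-coding genes, and 56.4% to 62.2% did after shifts of 500 to 5000 bp either way. The last, partial window of each chromosome was left out of the gene-poor windows, 36 of 235. Distances were computed in Python 3.11.15 with pandas 2.3.3 and numpy 2.4.6, and the code was tested on simulated data. Alternatives changed the window, the mark of a peak, the score or height limit and the assignment to genes.

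The members and lists were chosen with earlier results of these data known, and gene-poor zones, counts within 20 to 100 kb and the distances to peaks scoring 100 or more were added after seeing the data. The text names all 9 genes, bound genes of the lists and IBH1, and the genes nearest to flanking summits. Further list genes were named after their values were seen. Planned promoter and protein sequences, with their motifs, were not used here.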

Additional observations from a re-analysis of the deposited data

How the results depend on the processing

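BPE stayed the single gene of the 9 with a peak for windows of 500 and 2000 bp, for any base of the peak, for peak midpoints, for peaks at or above the median score or height, and for the nearest gene only. Under these settings, in that order, 10.6%, 16.7%, 14.7%, 12.8%, 6.7%, 6.92% and 9.26% of all protein-coding genes had a peak. BPE alone is 11.1% of the 9, and a count of 1 cannot show changes of this size. The count was 0 for summits inside genes alone and with scores of 100 or more, against 7.05% and 3.38% of all genes. Within 5000 bp it was 2 (22.2%), which added CIB5, against 27.7% of all genes. All protein-coding genes with a peak numbered 3499. They were 1934 for summits inside genes, 7593 within 5000 bp, 927 for peaks scoring at least 100, 1840 for peaks from the median score up and 1900 for summits from the median height up. Fewer peaks or wider windows do this by construction. Of the other 28 pathway genes, 3 had a peak (10.7%, against 12.7% of all protein-coding genes), IBH1 among them. This became 6 within 5000 bp (21.4%, against 27.7%). It became 1, IBH1, under both score limits (3.57%, against 3.38% for scores of at least 100 and 6.7% from the median score up). The median distance of the 9 genes to a summit rose from 33.8 kb to 85.4 kb under each of the 2 score limits. Of 45 single distances recomputed, 30 moved by less than 1.5 times. No paired analysis was possible because there was 1 library a group. Depth is unknown, so a gene without a listed peak may have enrichment below the authors' threshold.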
